A study of Mus musculus with 36 samples.

Results

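Enteric glial cells (EGCs) that had been exposed for 12 h to the conditioned medium of mouse colon tumors were compared with EGCs exposed for the same time to conditioned medium of healthy colon. The comparison takes 8 of the 36 RNA libraries of the series, chosen by the treatment and the time that their labels give. All 8 came from WT mouse EGCs grown from embryonic neurospheres. In 4 of them (TME-CM 12 h) the cells had received tumor microenvironment conditioned medium, which was prepared from digested orthotopic MC38 tumors, MC38 being a mouse colorectal cancer line. In the other 4 (H-CM 12 h) they had received medium conditioned by healthy colonic tissue. A further 4 libraries of unstimulated EGCs of 12 h are given beside them as the background level. EGCs from embryonic neurospheres are a culture model of primary cells, and both media are mixtures of whatever the tissues released. The labels number the 4 libraries of a group 1 to 4 but do not say whether they came from separate cultures, so the p-values below measure the spread between these libraries, which may be technical. In a bulk library, fewer cells of a type and less RNA per cell cannot be told apart.

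EGCs lie around the neurons of the gut wall and in the mucosa, where they support neuronal signaling and barrier function. Like astrocytes in the brain, they respond to inflammation and injury with a reactive state, in which they make cytokines, chemokines and acute-phase proteins. Many of these genes are induced through NF-κB, through STAT3 downstream of the IL-6 family, through C/EBP factors and through the interferon pathways.

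The 8 libraries held between 2756415 and 5595038 counts, and 12156 genes passed the filter on low counts. Levels below are in CPM, the count of a gene relative to a library size scaled by edgeR's TMM method, and values of single libraries are listed from replicate 1 to replicate 4. A fold change is the log2 ratio of TME-CM to H-CM, given with its SE and with a p-value adjusted over all 12156 genes. A gene was called when this adjusted p was under 0.05. Libraries were made from transcript 3′ ends, so that a count does not grow with the length of its transcript.

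Some libraries stood apart from the rest of their group. H-CM replicate 3 lay alone on the first principal component of the 8 libraries (109.8, against -52.19 to 9.617 for the others). Its mitochondrial share of counts was 6.88% (95% Wilson interval 6.85 to 6.9%, counting error only), against 2.04 to 3.51% in the other 7. TME-CM replicate 2 lay farthest out on the second component, at -78.93. H-CM replicate 1 stood apart in another way. Among the genes called higher in TME-CM, it held the highest of the 4 H-CM values for 92 of 148 (62.2%), against 26.7% of all genes tested. Hence this H-CM library was nearest to the TME-CM group in many of the genes described below.

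TME-CM exposure was accompanied by 230 called genes (1.89% of those tested). Of these, 148 were higher in TME-CM EGCs (1.22%) and 82 were lower (0.675%). The higher genes were led by acute-phase proteins, chemokines, cytokines, nitric oxide synthesis and protease inhibitors, and their median log2 fold change was 1.77. The lower genes changed less, with a median of -1.20, and included contractile genes. Of the 148, 61 exceeded 2 and 19 exceeded 4 on the log2 scale, whereas 4 of the 82 lay under -2. In 212 of the 230 the 4 TME-CM libraries did not overlap the 4 H-CM libraries, compared with 7.29% of all genes tested (4.01% with TME-CM above and 3.27% with TME-CM below). The median over all genes tested was -0.0011. Without H-CM replicate 3 and TME-CM replicate 2 together, 243 genes were called, 177 of them among the 230. The count was 297 without H-CM replicate 1 and fell to 137 without H-CM replicate 2, 141 without TME-CM replicate 1, 138 without TME-CM replicate 4 and 154 without H-CM replicate 4. With all 36 libraries in one model 81 genes were called, 69 higher and 12 lower, and 0 of them belonged to the lists of IL-1, adhesion, ER stress or BMP genes described below.

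**Figure D1:**
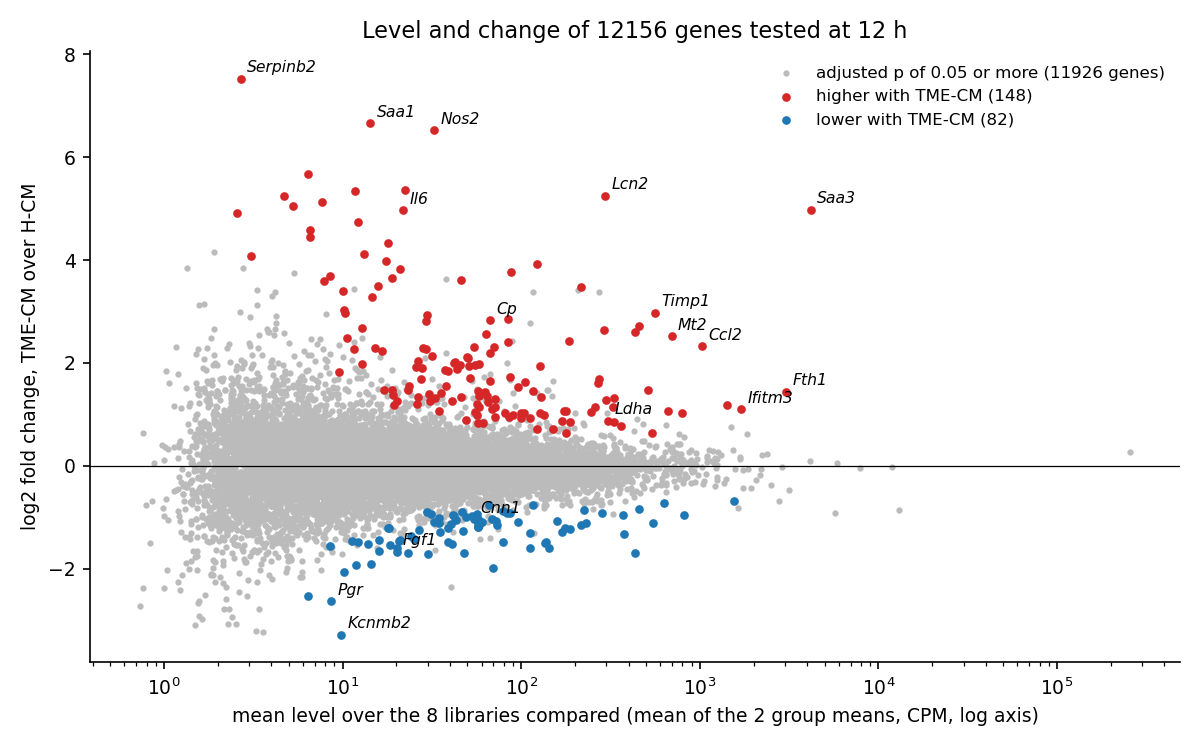
Each point is 1 gene tested at 12 h, with its mean level in CPM (log axis) against its log2 ratio of TME-CM to H-CM. The 148 called higher genes (red) reach further from 0 than the 82 called lower genes (blue), and Saa3 combines a high level with a log2 fold change of 4.98. The height of the Serpinb2 point depends on the prior count, since all its H-CM libraries were at 0.

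Acute-phase and iron-handling genes, whose products are secreted or bind iron during inflammation, were higher as a group. Of 13 tested, 10 rose and 0 fell, and in all 13 every TME-CM library lay above every H-CM library. Their median log2 fold change was 2.83. Saa3, a serum amyloid A protein made outside the liver (chr7:46711998-46715700, minus strand, GRCm38), had 9815, 7190.1, 7968 and 7549.8 CPM in TME-CM EGCs. The H-CM libraries had 708, 170.2, 63.01 and 91.6 CPM, and in unstimulated EGCs 31.96, 30.3, 36.5 and 39.00 CPM. Saa3 was thereby one of the most abundant changed transcripts, and its log2 fold change was 4.98 ± 0.74, adjusted p = 0.00675. H-CM replicate 1 was the highest of its group and still far below the lowest TME-CM library.

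Lcn2, which binds bacterial siderophores and marks reactive glia, lay on chromosome 2 (chr2:32384633-32388252, minus strand). Its TME-CM libraries had 564, 596, 470.1 and 672 CPM and its H-CM libraries 40.8, 9.29, 7.11 and 5.30 CPM, with 2.66 ± 1.72 CPM (SD, n = 4) in unstimulated EGCs. The log2 fold change was 5.25 ± 0.61, adjusted p = 8.64e-04. Steap4, a metalloreductase that is induced by inflammatory cytokines, was at 0 in all 4 unstimulated libraries. It had 41.7, 21.9, 64.98 and 45.2 CPM with TME-CM and 2.19, 0, 0.237 and 1.77 CPM with H-CM (5.36 ± 0.65, adjusted p = 3.03e-04). Cp, the copper-carrying ferroxidase ceruloplasmin, rose from 16.6 ± 8.23 to 117 ± 20.6 CPM (SD, n = 4, 2.83 ± 0.31, adjusted p = 2.67e-05). Serpina3n, an inhibitor of serine proteases that is also a marker of reactive astrocytes, rose from 7.44 ± 4.98 to 51.5 ± 8.16 CPM (2.81 ± 0.41, adjusted p = 5.75e-04). Serpina3n belongs to a family of close copies, and reads that could not be placed at 1 locus had been discarded, so its level is uncertain.

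The same holds for Saa1 and Saa2, neighbors on chromosome 7 whose transcripts are nearly identical. Saa1 had 48.4, 10.3, 22.2 and 32.1 CPM in TME-CM EGCs and 0.822, 0, 0 and 0.294 CPM in H-CM EGCs. Summed over libraries this was 487 counts against 5, a ratio of 124 after scaling (95% exact binomial interval 52.9 to 384, counting error only). Saa2 had 23.1, 13.6, 14.6 and 7.83 CPM against 1.92, 0, 0 and 0 CPM (5.13 ± 0.995, adjusted p = 0.00621), and its adjusted p was 0.0519 without TME-CM replicate 1. Hp, the hemoglobin scavenger haptoglobin, rose by 4.45 ± 0.95 (adjusted p = 0.0135). Among the transcription factors of this list, Cebpd rose from 57.8 ± 26.1 to 311 ± 52.04 CPM (2.43 ± 0.29, adjusted p = 1.26e-04) and Cebpb rose by 1.45 ± 0.27 (adjusted p = 0.00412), although 312 exon bases of Cebpb overlap Tmem189 on the opposite strand.

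**Figure D2:**
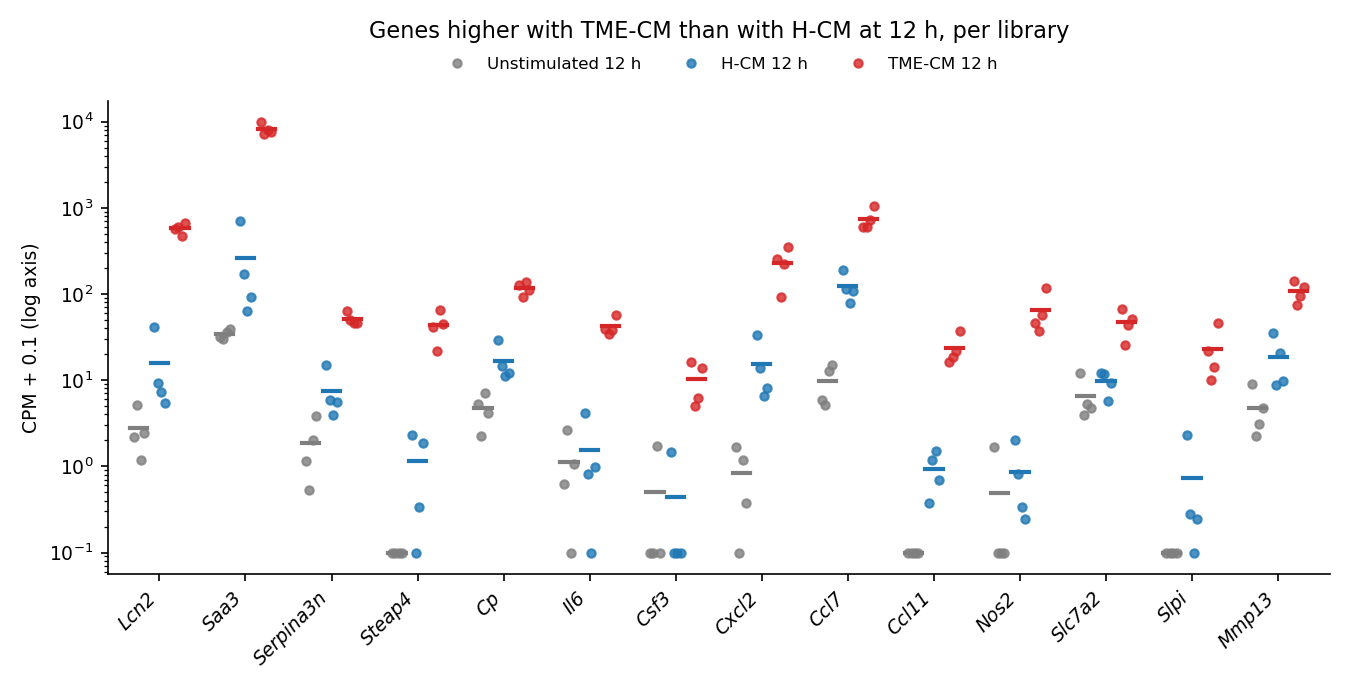
CPM (log axis, 0.1 added so that 0 can be drawn) of 14 genes in the 12 libraries of 12 h, where each point is 1 library and each bar the mean of 4. In every gene shown the 4 TME-CM libraries (red) lie above the 4 H-CM libraries (blue), and for Saa3, Lcn2 and Cxcl2 the H-CM libraries lie between TME-CM and most unstimulated libraries (gray).

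Chemokines, the secreted proteins that direct leukocyte migration, were examined in 3 lists. Of 4 neutrophil-attracting CXC chemokines tested, Cxcl1 and Cxcl2 rose, and the list had a median log2 fold change of 3.13. Cxcl2 had 251, 91.2, 223 and 350.0 CPM with TME-CM, 33.4, 13.8, 6.40 and 7.95 CPM with H-CM and 1.57, 0, 1.09 and 0.277 CPM in unstimulated EGCs (3.93 ± 0.55, adjusted p = 0.00202). For Cxcl1 the levels were 390.1, 237, 345 and 615 CPM and 68.8, 30.2, 23.2 and 21.9 CPM in the same 2 stimulated groups (3.47 ± 0.39, adjusted p = 1.59e-04). In both genes the groups did not overlap, and TME-CM replicate 2 was the lowest of its group. Cxcl5, a further ligand of the same receptor, lay at 196 ± 39.8 CPM against 29.02 ± 34.3 CPM without passing the test (adjusted p = 0.0658).

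CC chemokines attract monocytes, eosinophils and T cells. Of 10 tested, 5 rose, 0 fell and all 10 had a positive log2 fold change, with a median of 2.59. Ccl7, a monocyte-attracting neighbor of Ccl2 on chromosome 11, had 592, 592, 727 and 1062 CPM in TME-CM EGCs, 189.6, 114, 78.9 and 108 CPM in H-CM EGCs and 5.76, 5.11, 12.8 and 14.8 CPM in unstimulated EGCs (2.60 ± 0.30, adjusted p = 1.20e-04). Ccl2 itself rose by 2.33 ± 0.32 (adjusted p = 6.45e-04). Ccl11, or eotaxin, the attractant of eosinophils, was at 0 in the 4 unstimulated libraries and had 0.274, 1.07, 1.42 and 0.589 CPM with H-CM. With TME-CM it reached 15.9, 18.6, 21.8 and 37.3 CPM (4.75 ± 0.57, adjusted p = 1.60e-04). The TME-CM libraries were thus all above the H-CM libraries for these chemokines, and replicate 4 was the highest TME-CM library in each of Ccl2, Ccl7 and Ccl11. Ccl3 (3.03 ± 0.75, adjusted p = 0.0389) and Ccl5 (3.28 ± 0.79, adjusted p = 0.0413) were called less firmly. Their adjusted p values rose to 0.165 and 0.201 without TME-CM replicate 4, and 3 genes of the list were called without that library, without TME-CM replicates 1 or 3 or without H-CM replicates 2 or 4.

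Among the other chemokines, Cx3cl1 and Cxcl16, the transmembrane members, rose from 16.97 ± 7.35 to 68.5 ± 12.2 CPM (2.03 ± 0.30, adjusted p = 5.75e-04) and from 23.9 ± 15.4 to 109 ± 24.5 CPM (2.20 ± 0.39, adjusted p = 0.00381). Cxcl10, an interferon-inducible attractant of T cells, had 37.3, 168, 241 and 205 CPM with TME-CM and 29.6, 7.86, 8.53 and 3.24 CPM with H-CM. The groups did not overlap, but TME-CM replicate 1 was only slightly above H-CM replicate 1. Its log2 fold change was 3.78 ± 0.68, adjusted p = 0.0145, and the adjusted p was 0.075 without H-CM replicate 3. Of the exon bases of Cxcl10, 133 overlap Art3 on the opposite strand. Cxcl12, the homeostatic chemokine that retains leukocytes and guides migrating neural crest cells, moved the other way. It had 63.96, 56.96, 60.7 and 65.3 CPM in TME-CM EGCs and 86.05, 119, 206 and 114 CPM in H-CM EGCs (-1.09 ± 0.22, adjusted p = 0.00943), and its unstimulated mean of 132 ± 15.9 CPM was close to that of H-CM.

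Macrophages also make most of these chemokines, so their markers were read in the same libraries. Of 11 macrophage markers tested, 0 were called by edgeR's quasi-likelihood test or by DESeq2, 0 had an unadjusted p under 0.05 and the median log2 fold change was 0.07. Among all genes tested edgeR called 1.89%, so 0 of 11 does not set these markers apart. Of the 13 markers listed, 12 were present in the deposited counts and Adgre1 was absent. The summed level of these 12 ranged from 85.3 to 424 CPM in TME-CM EGCs and from 82.0 to 270.2 CPM in H-CM EGCs, so that the groups overlapped. None of these 12 was at 0 in all 8 libraries, and single markers varied widely within a group. Itgam ranged from 8.64 to 53.2 CPM with TME-CM and from 4.12 to 26.0 CPM with H-CM. Whether macrophages in the cultures made the chemokine RNA was not tested.

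Cytokines of the IL-6 and colony-stimulating factor families gave 4 higher and 0 lower genes of 12 tested, with a median log2 fold change of 0.45. Il6 (chr5:30013114-30019981, plus strand) had 39.2, 33.8, 38.2 and 57.2 CPM in TME-CM EGCs, while H-CM EGCs had 4.11, 0.714, 0 and 0.883 CPM and unstimulated EGCs 0.524, 2.56, 0 and 0.968 CPM. The TME-CM libraries all lay far above the highest H-CM library, and the log2 fold change was 4.97 ± 0.66, adjusted p = 3.34e-04. Csf3, the granulocyte colony-stimulating factor, had 15.9, 4.95, 6.17 and 13.6 CPM against 1.37, 0, 0 and 0 CPM (5.05 ± 1.19, adjusted p = 0.0282), and its adjusted p reached 0.126 without TME-CM replicate 4. On the receiving side, Osmr, the receptor subunit for oncostatin M, rose from 26.2 ± 7.71 to 65.5 ± 14.8 CPM (1.33 ± 0.24, adjusted p = 0.00401). Socs3, the feedback inhibitor of STAT3 signaling, rose from 11.7 ± 4.26 to 51.5 ± 16.3 CPM (2.14 ± 0.31, adjusted p = 5.75e-04), and its level in H-CM was close to the 12.3 ± 2.21 CPM of unstimulated EGCs.

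IL-1 signals through Il1r1 and Il1rap to NF-κB. Of 13 genes of the IL-1 family and its adaptors, Irak3 and Il1rap rose, and the median was 0.58. Irak3, an inhibitory kinase of the pathway, rose from 3.14 ± 2.44 to 18.1 ± 5.14 CPM (2.48 ± 0.55, adjusted p = 0.0187), and Il1rap, the co-receptor, from 11.9 ± 3.10 to 26.9 ± 8.46 CPM (1.18 ± 0.30, adjusted p = 0.046). In this list 0 genes were called without H-CM replicate 2, TME-CM replicate 1 or TME-CM replicate 4. Of 18 NF-κB subunits and feedback genes, 4 rose, 0 fell and 17 had a positive log2 fold change, with a median of 0.84. Nfkbiz, a nuclear IκB protein that supports Il6 and Lcn2 transcription, had 111, 48.3, 99.5 and 104 CPM in TME-CM EGCs and 32.9, 34.1, 32.7 and 35.5 CPM in H-CM EGCs (1.43 ± 0.26, adjusted p = 0.00309). The feedback inhibitors Nfkbia (0.77 ± 0.19, adjusted p = 0.0353) and Tnip1 (1.02 ± 0.23, adjusted p = 0.0189) rose less. The IκB protein Bcl3 rose by 1.55 ± 0.40 (adjusted p = 0.0468). Without H-CM replicate 2, H-CM replicate 4 or TME-CM replicate 1, 1 gene of this list was called. Of 8 Toll-like and NOD receptor genes tested, 0 were called by edgeR (median 0.45, 2 at an unadjusted p under 0.05), against 1.89% of all genes tested. In this list 1 gene was called higher by DESeq2 and 1 with both outlying libraries left out.

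Promoter sequences were searched for the binding motifs of these pathways in the 250 bases before each RefSeq start on GRCm38.p6, on both strands. RefSeq windows matched 110 of the 148 higher genes (131 windows) and 56 of the 82 lower genes (81 windows). A κB motif, the 10-base element of NF-κB, was found in 18 of the 131 windows of higher genes (13.7%), in 1 of the 81 windows of lower genes (1.23%), in 4.65% of the windows of all genes tested and in 3.9% of all 32851 windows. An interferon-stimulated response element core, searched as GAAANNGAAA, was found in 9.16% and 3.7% of the windows of higher and lower genes and in 2.53% of those of all genes tested. The STAT motif TTCCNGGAA was found in 2.29%, 1.23% and 0.971% in the same order. No test was run on these shares, a match is a description and not a bound site, and neighboring starts of 1 gene share bases.

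The following stretches show κB matches before chemokine, cytokine and feedback genes that rose and before the acute-phase gene Steap4, with the match in capitals and the strand of the gene read 5′ to 3′. Each gene's stretch was chosen after its expression values had been seen.
Il6, chr5:30013050-30013099, plus strand, match beginning 44 bases before the start: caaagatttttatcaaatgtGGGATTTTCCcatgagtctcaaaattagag
Cxcl1, chr5:90891154-90891203, plus strand, 71 bases before the start: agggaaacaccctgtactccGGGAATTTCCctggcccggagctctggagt
Cxcl2, chr5:90903782-90903831, plus strand, 97 bases before the start: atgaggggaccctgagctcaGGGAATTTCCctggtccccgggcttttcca
Cxcl10, chr5:92348963-92349012, minus strand, 103 bases before the start: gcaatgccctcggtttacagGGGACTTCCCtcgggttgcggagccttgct
Nfkbia, chr12:55492648-55492696, minus strand, 29 bases before the start: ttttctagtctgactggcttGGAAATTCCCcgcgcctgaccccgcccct
Tnip1, chr11:54962968-54963017, minus strand, 57 bases before the start: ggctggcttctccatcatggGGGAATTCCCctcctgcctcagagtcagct
Steap4, chr5:7960226-7960275, plus strand, 226 bases before the start: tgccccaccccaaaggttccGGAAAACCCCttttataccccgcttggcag
The matches of Cxcl1 and Cxcl2 have the same 10 letters. In Cxcl1 and Cxcl2 the motif also matched 1 base further along, and in Tnip1 1 base to either side. Cxcl10 and Steap4 each held a further κB match, not shown, that began 159 and 250 bases before the start. Steap4 held a STAT match closer to its start, and Cxcl10 and Saa3 held an interferon-stimulated response element core, shown here in capitals for comparison.
Steap4, chr5:7960336-7960384, plus strand, 116 bases before the start: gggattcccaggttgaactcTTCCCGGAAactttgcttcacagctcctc
Cxcl10, chr5:92349073-92349122, minus strand, 213 bases before the start: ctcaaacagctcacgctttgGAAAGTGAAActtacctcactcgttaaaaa
Saa3, chr7:46715772-46715821, minus strand, 125 bases before the start: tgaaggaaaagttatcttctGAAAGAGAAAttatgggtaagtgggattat

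Interferon-inducible genes were positive throughout but spread widely between libraries. All 26 type I interferon-stimulated genes tested had a positive log2 fold change, with a median of 1.34, yet only Ifitm1 and Ifitm3 were called. Both encode membrane proteins that restrict virus entry. Ifitm3 had 2154, 2614, 2443 and 2108 CPM with TME-CM and 1792, 924, 979.7 and 643 CPM with H-CM, and 380.5 ± 38.5 CPM (SD, n = 4) in unstimulated EGCs (1.10 ± 0.23, adjusted p = 0.00957). Ifitm1 rose from 20.6 ± 9.24 to 148 ± 50.6 CPM (2.86 ± 0.39, adjusted p = 4.66e-04). The mean of log2(CPM + 1) over the 26 genes was 4.94, 5.86, 6.05 and 5.81 in the TME-CM libraries. It was 5.51, 4.29, 3.98 and 3.67 in the H-CM libraries and 2.01 to 2.57 in unstimulated EGCs. Thus H-CM replicate 1 lay above TME-CM replicate 1, and the groups overlapped through this pair alone. Without H-CM replicate 1, 13 of the 26 genes were called higher, and without TME-CM replicate 1, 5 were.

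For genes that respond to interferon gamma, the count depended on the same libraries. Of 15 guanylate-binding and related genes tested, 5 rose and all 15 had a positive log2 fold change, with a median of 1.66. Gbp4, a guanylate-binding GTPase, had 4.19, 10.7, 17.5 and 18.01 CPM against 1.10, 0, 0 and 0 CPM (5.67 ± 1.06, adjusted p = 0.00639), and it shares 61 exon bases with Gbp8 on the same strand. Irf1, a transcription factor of the pathway, rose from 32.3 ± 10.7 to 102 ± 25.99 CPM (1.65 ± 0.26, adjusted p = 9.51e-04). Gbp3 (1.99 ± 0.36, adjusted p = 0.0031), Irgm2 (1.95 ± 0.39, adjusted p = 0.00957) and the receptor subunit Ifngr2 (1.07 ± 0.27, adjusted p = 0.0467) were also called. Without H-CM replicate 1 the list held 10 called genes, without TME-CM replicate 1 it held 7, and without both H-CM replicate 3 and TME-CM replicate 2 it held 3.

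Antigen presentation on MHC class I showed the same layout, with 5 of 14 genes higher, 0 lower, all 14 positive and a median of 1.77. The immunoproteasome subunit Psmb10 had 36.7, 98.2, 82.1 and 106 CPM in TME-CM EGCs and 23.8, 17.7, 12.6 and 19.9 CPM in H-CM EGCs (2.12 ± 0.31, adjusted p = 6.21e-04). The proteasome activator Psme1 rose from 73.3 ± 19.4 to 186 ± 65.4 CPM (1.35 ± 0.25, adjusted p = 0.0048). Psmb9 (3.60 ± 0.69, adjusted p = 0.00586) and the peptide transporter Tap1 (2.10 ± 0.42, adjusted p = 0.00981) overlap each other by 212 exon bases on opposite strands. Within these bases their reads cannot be told apart unless counting used the strand (not given in the sources used here). The shared bases lie at the 5′ ends of both genes, whereas the libraries were made from 3′ ends. Tap1 was one of the called genes whose groups overlapped, since H-CM replicate 1 (34.5 CPM) lay above TME-CM replicate 1 (32.1 CPM). H2-T22, a nonclassical class I gene with close copies, rose by 2.23 ± 0.52 (adjusted p = 0.0253). The list held 9 called genes without H-CM replicate 1 and 3 without H-CM replicate 2.

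Nitric oxide and arginine genes gave 6 higher and 0 lower of 9 tested, with a median of 1.85. Nos2, the inducible nitric oxide synthase (chr11:78920787-78960254, plus strand), had 45.5, 37.1, 57.4 and 117 CPM with TME-CM, 1.92, 0.714, 0.237 and 0.147 CPM with H-CM and 1.57, 0, 0 and 0 CPM in unstimulated EGCs. It was at or under 1.92 CPM in both control groups, did not overlap between TME-CM and H-CM and rose by 6.53 ± 0.65, adjusted p = 2.31e-05 on the log2 scale. The enzymes around it rose with it. Slc7a2, the transporter that brings arginine into the cell, rose from 9.62 ± 2.92 to 46.8 ± 17.4 CPM (2.28 ± 0.36, adjusted p = 0.00109), and Gch1, which makes the cofactor tetrahydrobiopterin, from 16.9 ± 5.97 to 60.5 ± 13.99 CPM (1.85 ± 0.30, adjusted p = 0.00126). Arg2, the mitochondrial arginase that competes for arginine, rose from 1.22 ± 0.978 to 15.8 ± 5.10 CPM (3.69 ± 0.70, adjusted p = 0.00533), and Odc1, the first enzyme of polyamine synthesis, rose by 1.27 ± 0.29 (adjusted p = 0.0221). Sod2, the mitochondrial superoxide dismutase, had 869, 725, 742 and 837 CPM against 198, 92.3, 103 and 92.9 CPM (2.71 ± 0.22, adjusted p = 1.27e-06). In Sod2, H-CM replicate 1 was well above the other H-CM libraries and far below the lowest TME-CM library.

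Metal-binding proteins included some of the most abundant changed transcripts, with 2 of 6 metallothionein and zinc transport genes higher. The metallothionein Mt2, which buffers zinc and copper, had 1340.3, 1061, 1034 and 1308 CPM in TME-CM EGCs and 266, 156, 242 and 163 CPM in H-CM EGCs (2.52 ± 0.24, adjusted p = 4.07e-06). Mt1 rose less, from 429 ± 82.2 to 900.3 ± 119 CPM (1.07 ± 0.19, adjusted p = 0.00301). Mt2 shares 432 exon bases with Gm45774 on the opposite strand. Fth1, the ferritin heavy chain that stores iron, had 4939.8, 4108, 3638 and 5185 CPM against 2539, 1101, 1686 and 1247 CPM and did not overlap between the groups (1.44 ± 0.22, adjusted p = 9.13e-04). Fth1 was the only called gene of 16 in the list of NRF2 targets and antioxidant genes.

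Genes that degrade the matrix or restrain its degradation moved in both directions, with 6 of 23 higher, 2 lower and a median of 0.51. Timp1, an inhibitor of metalloproteinases, rose by 2.98 ± 0.26 (adjusted p = 1.59e-06). Its relative Timp3 fell, with 275, 286, 257 and 191 CPM in TME-CM EGCs and 503, 470.2, 563 and 431 CPM in H-CM EGCs (-0.96 ± 0.17, adjusted p = 0.0028), although 1733 of its exon bases overlap Syn3 on the opposite strand. The 2 inhibitors thus moved in opposite directions, each without overlap between the groups. Among the proteases, the collagenase Mmp13 had 142, 74.7, 93.8 and 121 CPM against 35.1, 8.75, 20.4 and 9.72 CPM (2.57 ± 0.40, adjusted p = 0.00117). The gelatinase Mmp9 rose from 80.7 ± 54.9 to 505 ± 124 CPM (2.65 ± 0.43, adjusted p = 0.00414) and the aggrecanase Adamts4 by 1.41 ± 0.26 (adjusted p = 0.00451). Mmp11 fell by 1.18 ± 0.29 (adjusted p = 0.0389).

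Slpi, a secreted inhibitor of neutrophil elastase, was at 0 in the 4 unstimulated libraries and had 2.19, 0.179, 0 and 0.147 CPM in H-CM EGCs. In TME-CM EGCs it had 21.6, 9.91, 14.2 and 46.2 CPM (5.34 ± 0.85, adjusted p = 0.0022). Serpinb2, the type 2 inhibitor of plasminogen activators, had 7.55, 7.84, 2.06 and 4.18 CPM with TME-CM and 0 counts in all 4 H-CM libraries. Taking 3 counts per library as the limit that a count of 0 allows, this was at least 8.62-fold higher. Unstimulated EGCs had 0, 0.426, 3.54 and 0.138 CPM, so the gene was not limited to TME-CM. Serpinb2 shares 291 exon bases with Serpinb10 on the same strand, and its adjusted p reached 0.0568 without H-CM replicate 2.

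Prostaglandin synthesis gave 2 higher genes of 13 (median 0.11). Ptges, the terminal synthase of prostaglandin E2, rose from 18.5 ± 10.96 to 90.5 ± 23.5 CPM (2.31 ± 0.37, adjusted p = 0.00119), and Ptgs2, the inducible cyclooxygenase upstream of it, had 496, 306, 458 and 633 CPM against 161, 216, 131 and 249 CPM (1.32 ± 0.25, adjusted p = 0.00547). In unstimulated EGCs Ptgs2 had 217 ± 69.2 CPM (SD, n = 4), close to H-CM. Complement gave 3 higher genes of 11 (median 0.56), namely Serping1, the C1 inhibitor (1.15 ± 0.18, adjusted p = 9.13e-04), C3, the central component (2.94 ± 0.68, adjusted p = 0.0414), and the protease C1ra (1.97 ± 0.50, adjusted p = 0.0463). Only Serping1 was called in every fit that left out 1 library. The complement count was 1 without H-CM replicate 2, H-CM replicate 4, TME-CM replicate 1, TME-CM replicate 3 or TME-CM replicate 4.

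Few surface molecules through which leukocytes adhere or signal were called. The costimulatory receptor Cd40 was the only called gene of 12 in the TNF superfamily list (median 0.12), with 52.4, 73.5, 51.6 and 97.6 CPM in TME-CM EGCs and 21.4, 22.5, 9.24 and 20.6 CPM in H-CM EGCs (1.89 ± 0.36, adjusted p = 0.00583). Of 13 adhesion molecules and syndecans, Sdc1 (1.29 ± 0.23, adjusted p = 0.00251), the selectin Selp (2.97 ± 0.61, adjusted p = 0.00981) and Vcam1 (1.33 ± 0.32, adjusted p = 0.0325) rose (list median 0.37). Selp and Vcam1 had adjusted p values of 0.0922 and 0.175 without TME-CM replicate 4, and 1 gene of the list was called without that library or without H-CM replicate 2. Endothelial cells also express both. The summed level of 7 endothelial markers was 28.1 to 43.1 CPM in TME-CM EGCs and 44.1 to 62.3 CPM in H-CM EGCs, so that TME-CM was lower without overlap, and Cldn5 was at 0 in all 8. Kdr had the highest level of the 7 in each library. It had 24.7, 12.0, 20.8 and 33.7 CPM in TME-CM EGCs and 36.7, 53.6, 52.6 and 52.5 CPM in H-CM EGCs. Of the 3 endothelial markers that could be tested, 2 had a positive log2 fold change, and the median was 0.34. Of these 3, 0 were called by edgeR (1 at an unadjusted p under 0.05) and 1 was called lower by DESeq2 and with a replicate block.

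Glycolysis and hypoxia genes shifted modestly, with 6 of 27 higher, 0 lower, 25 of 27 positive and a median of 0.56. Slc2a1, the glucose transporter, rose from 50.6 ± 16.5 to 158 ± 42.5 CPM (1.64 ± 0.25, adjusted p = 9.08e-04). Slc16a3, which exports lactate, rose from 24.1 ± 12.7 to 78.7 ± 7.28 CPM (1.71 ± 0.30, adjusted p = 0.00286), and Bnip3, a mitophagy receptor induced by hypoxia, from 36.3 ± 8.91 to 92.9 ± 12.2 CPM (1.36 ± 0.21, adjusted p = 0.00106). The glycolytic enzymes Pfkl (1.14 ± 0.20, adjusted p = 0.00224), Tpi1 (1.02 ± 0.19, adjusted p = 0.0052) and Ldha (0.88 ± 0.22, adjusted p = 0.0353) were the other 3. For Slc2a1 the unstimulated mean of 63.6 ± 13.8 CPM was close to that of H-CM, and all 4 TME-CM libraries lay above both groups.

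**Figure D3:**
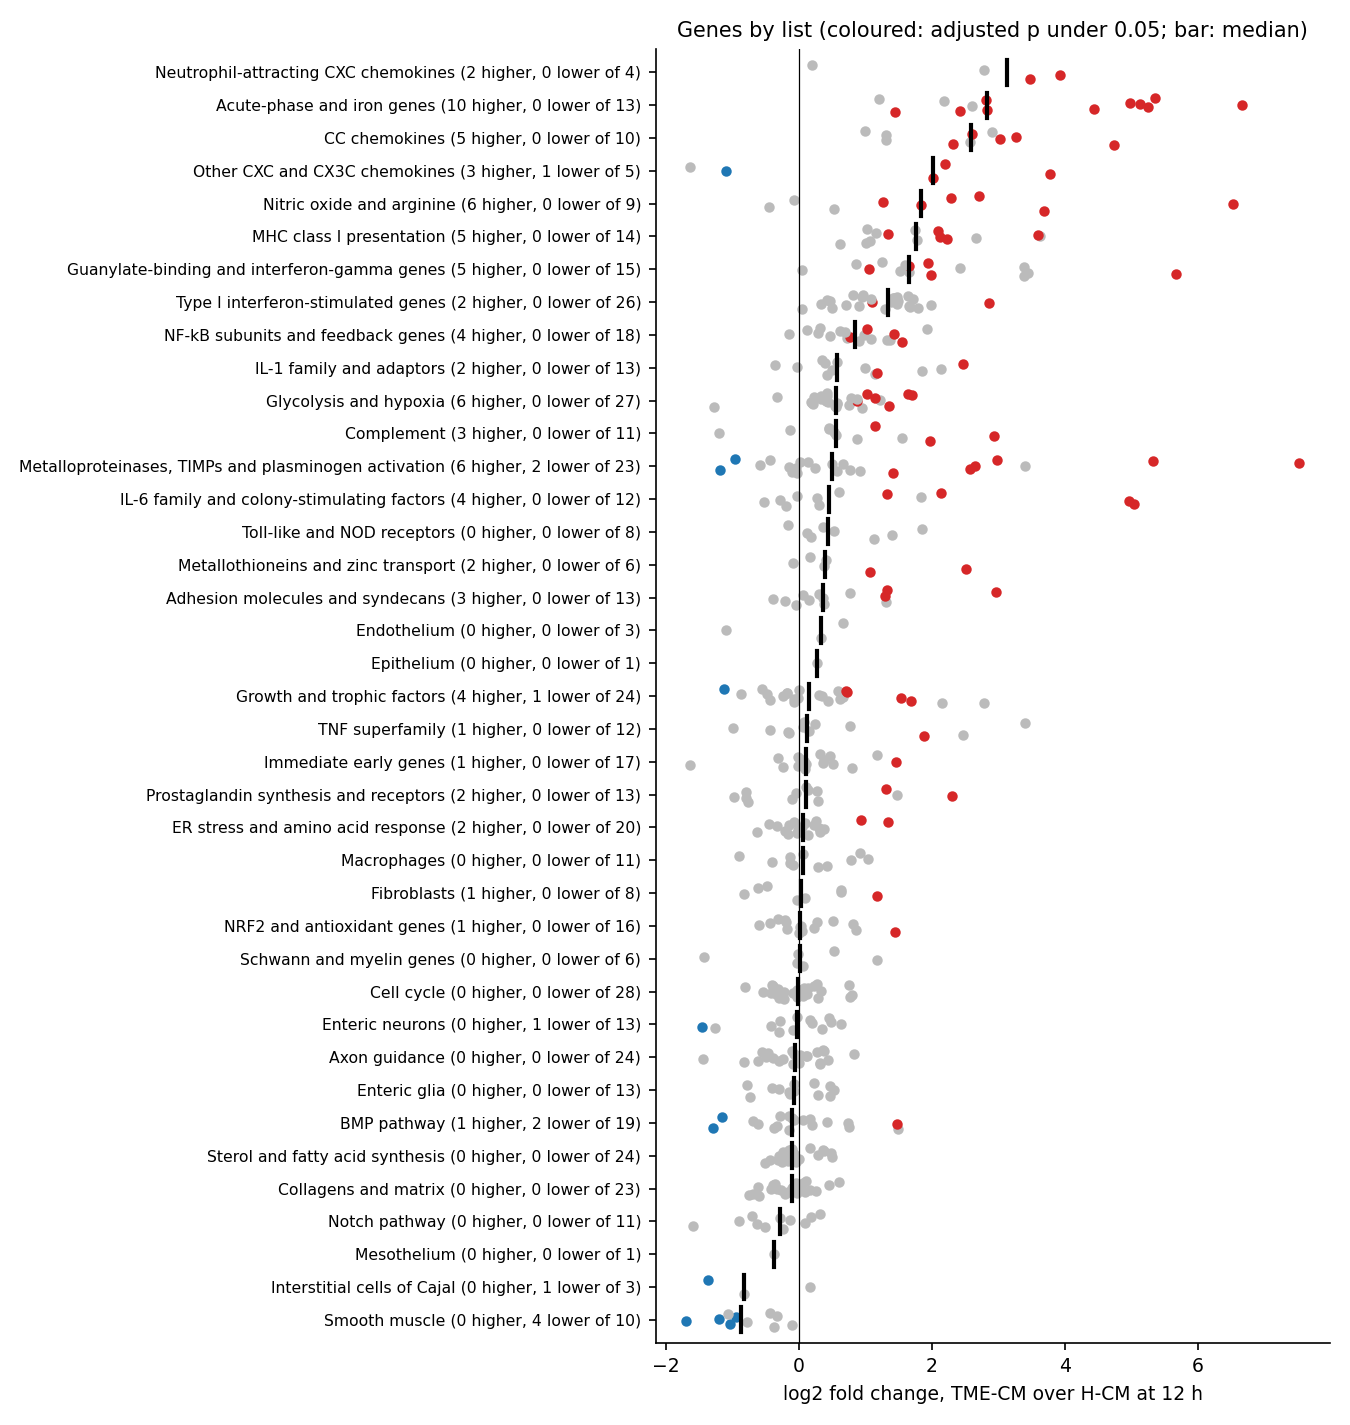
Log2 ratios of TME-CM to H-CM at 12 h for the genes tested in each of 39 lists, sorted by median (black bar), with called genes in red (higher) or blue (lower) and the counts in the labels. Chemokine, acute-phase, nitric oxide and interferon-related lists lie to the right of 0, whereas smooth muscle genes lie to the left.

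Growth factors and morphogens were mixed. Of 24 growth and trophic factors, 4 rose and 1 fell, with a median of 0.15. Ereg, a ligand of the EGF receptor, rose from 13.04 ± 7.33 to 41.6 ± 3.89 CPM (1.69 ± 0.33, adjusted p = 0.00667), and Igfbp3, which binds insulin-like growth factors, from 49.2 ± 14.2 to 143 ± 65.2 CPM (1.54 ± 0.31, adjusted p = 0.00943). Pdgfa (0.72 ± 0.17, adjusted p = 0.0262) and Spp1 or osteopontin (0.71 ± 0.18, adjusted p = 0.0492) rose by less and were each called in 1 of the 8 fits that left out a library. Tgfb3 fell by 1.12 ± 0.23 (adjusted p = 0.0104). Without TME-CM replicate 4, only 1 gene of this list was called higher and 0 lower, and without H-CM replicate 1 or TME-CM replicate 1, 2 were called higher. In the BMP pathway, the ligand Bmp4 and the antagonist Nog fell while the antagonist Fst rose, out of 19 tested (median -0.10). Nog had 32.1, 32.2, 37.6 and 42.3 CPM in TME-CM EGCs and 70.98, 94.6, 72.7 and 81.4 CPM in H-CM EGCs (-1.15 ± 0.19, adjusted p = 0.00199), without overlap. Bmp4 had 91.6 ± 21.8 CPM in unstimulated EGCs, 49.3 ± 11.7 with H-CM and 20.5 ± 7.63 with TME-CM (-1.29 ± 0.28, adjusted p = 0.0137 between the stimulated groups). Between H-CM and unstimulated EGCs Bmp4 was not called (-0.89, adjusted p = 0.322). Fst rose by 1.48 ± 0.37 (adjusted p = 0.0394, and 0.286 without TME-CM replicate 4).

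The genes with the largest falls had moderate levels in H-CM EGCs. Kcnmb2, a β subunit of the large-conductance calcium-activated potassium channel (chr3:31902507-32200180, plus strand), had 0.629, 1.65, 4.73 and 0 CPM in TME-CM EGCs. H-CM EGCs had 15.6, 22.9, 20.8 and 12.4 CPM and unstimulated EGCs 30.4, 24.7, 24.2 and 14.5 CPM, so that both control groups lay above all TME-CM libraries (-3.28 ± 0.59, adjusted p = 0.00341). Pgr, the progesterone receptor, had 3.98, 1.65, 3.29 and 0.261 CPM against 7.95, 16.96, 23.4 and 11.3 CPM (-2.63 ± 0.55, adjusted p = 0.0115). Fgf1, a growth factor that acts on neurons and glia, had 6.08, 11.6, 12.96 and 8.09 CPM against 22.5, 35.9, 34.6 and 29.3 CPM (-1.67 ± 0.29, adjusted p = 0.00245). Ntsr1, the neurotensin receptor, fell by 1.60 ± 0.33 (adjusted p = 0.00995). Wscd2 (-2.52 ± 0.49, adjusted p = 0.00672), Lurap1l (-1.94 ± 0.36, adjusted p = 0.00412), Susd4 (-1.92 ± 0.36, adjusted p = 0.00525), a regulator of complement, and Slc5a3, the transporter of myo-inositol (-1.59 ± 0.30, adjusted p = 0.00667), fell without overlap between the groups. Slc5a3 shares 159 exon bases with Mrps6 on the same strand. Impa2, an enzyme that releases inositol from its phosphate, fell from 16.6 ± 11.2 to 3.83 ± 1.69 CPM (-2.06 ± 0.47, adjusted p = 0.0222). The predicted genes Gm13889 (-1.98 ± 0.31, adjusted p = 0.00106) and Gm16010 (-1.69 ± 0.26, adjusted p = 9.13e-04) also fell, and each shares exon bases with a neighbor. None of the 9 named and annotated genes of this paragraph was called between H-CM and unstimulated EGCs (adjusted p of 0.997 for each).

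Smooth muscle markers were lower in part. Of 10 smooth muscle markers tested, 4 fell, 0 rose and all 10 had a negative log2 fold change, with a median of -0.86. The summed level of the 11 markers was 3386, 3647, 3393 and 3236 CPM in the TME-CM libraries, 4788, 6290, 4415 and 4069 CPM in the H-CM libraries and 6560 to 7001 CPM in unstimulated EGCs, so that the 3 groups did not overlap. Acta2 had the highest level of the 11 in each library, at 2190 ± 116 CPM with TME-CM and 2833 ± 440 CPM with H-CM. It was not called (-0.37 ± 0.15, adjusted p = 0.316), and neither was Actg2 (-0.11 ± 0.20, adjusted p = 0.912). Cnn1, the actin-binding calponin, had 32.9, 35.1, 33.9 and 40.5 CPM in TME-CM EGCs and 55.4, 81.8, 98.3 and 57.3 CPM in H-CM EGCs (-1.04 ± 0.21, adjusted p = 0.00885). Mylk, the myosin light chain kinase, fell from 1079 ± 367 to 559 ± 159.7 CPM (-0.95 ± 0.23, adjusted p = 0.0389), and the smooth muscle myosin Myh11 (-1.19 ± 0.29, adjusted p = 0.0367) and leiomodin Lmod1 (-1.69 ± 0.38, adjusted p = 0.027) were also called, with overlapping groups. Myocd, a coactivator that drives smooth muscle genes, was at 0 in all 8 libraries. Whether fewer smooth muscle-like cells or less RNA per cell lay behind these levels was not tested. Without H-CM replicate 2, TME-CM replicate 1 or TME-CM replicate 4, 1 gene of the list was called, and with a replicate block 2 were. With all 36 libraries in one model 0 were called by edgeR.

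Outside the marker list, Myh10, the nonmuscle myosin IIB heavy chain (chr11:68691559-68816632, plus strand), had 256, 161, 289 and 115 CPM in TME-CM EGCs and 656, 922, 474 and 605 CPM in H-CM EGCs (-1.69 ± 0.27, adjusted p = 0.0011). Tpm1, a tropomyosin, fell from 1921 ± 405 to 1193 ± 114 CPM (-0.69 ± 0.16, adjusted p = 0.028). Jph2, which couples membranes in muscle cells, fell from 27.3 ± 6.30 to 9.65 ± 5.20 CPM (-1.53 ± 0.34, adjusted p = 0.0188), and Popdc2, a membrane protein of striated and cardiac muscle, from 12.7 ± 4.64 to 4.36 ± 0.921 CPM (-1.55 ± 0.37, adjusted p = 0.0332). Dlk1, an imprinted ligand-like protein of progenitor cells, had 317, 335, 350.4 and 390.2 CPM against 507, 813, 939.6 and 746 CPM (-1.11 ± 0.18, adjusted p = 0.00119). The serine protease Prss23 fell from 168 ± 41.1 to 55.8 ± 14.5 CPM (-1.59 ± 0.22, adjusted p = 4.15e-04), with 864 of its exon bases overlapping Prss23os on the opposite strand. Among the abundant lower genes, the small heat shock protein Hspb1 had 359.7, 278, 367 and 298 CPM against 364, 791, 687 and 492 CPM (-0.84 ± 0.20, adjusted p = 0.0332), and the heparin-binding neurotrophic factor Ptn 416, 426, 519 and 529.9 CPM against 728, 869, 517 and 1009 CPM (-0.72 ± 0.18, adjusted p = 0.046), both with overlapping groups. A CArG box, the serum response factor motif of muscle genes, was found in 2.47% of the promoter windows of lower genes and 0% of those of higher genes, against 1.23% for all genes tested. The 2 lower genes that held it were Fhl1, a LIM-domain protein of muscle, and Lurap1l, for which it is shown in capitals.
Lurap1l, chr4:80910488-80910537, plus strand, 178 bases before the start: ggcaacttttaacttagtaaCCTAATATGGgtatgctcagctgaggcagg

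**Figure D4:**
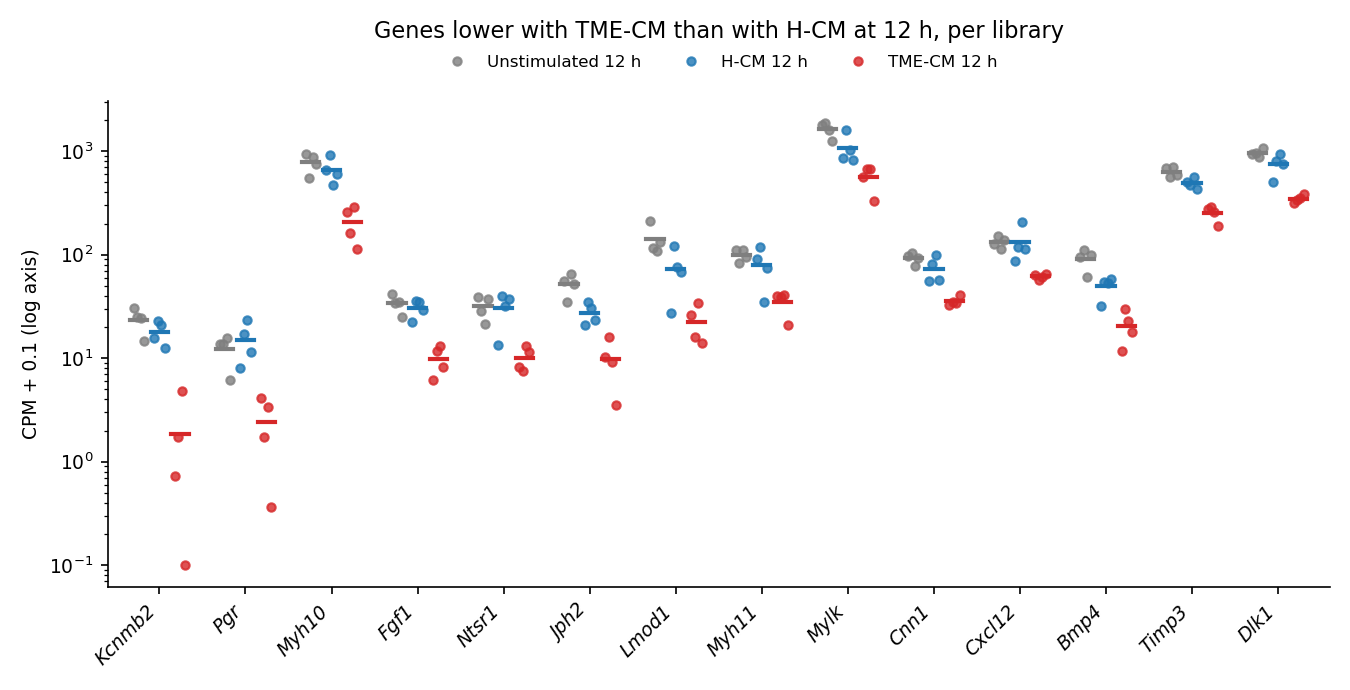
CPM (log axis, 0.1 added) of 14 called lower genes in the 12 libraries of 12 h, with 1 point per library and a bar at the mean of 4. The TME-CM libraries (red) lie below the H-CM libraries (blue) in 12 of the 14 genes, with overlap for Lmod1 and Myh11.

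Glial identity genes were detected in all groups. Of 13 enteric glial markers tested, 0 were called by edgeR's quasi-likelihood test or by DESeq2 (median -0.07, 1 at an unadjusted p under 0.05). Among all genes tested edgeR called 1.89%, so 0 of 13 does not set these markers apart. Their summed level was 326 to 347 CPM in TME-CM EGCs, 310 to 406 CPM in H-CM EGCs and 322 to 395 CPM in unstimulated EGCs. Sox10, the glial transcription factor, had 74.7, 78.00, 60.3 and 56.9 CPM with TME-CM and 72.3, 78.6, 58.7 and 73.7 CPM with H-CM (log2 fold change -0.07 ± 0.18, adjusted p = 0.934). S100b, a calcium-binding protein of glia, had 37.7, 70.6, 32.1 and 28.5 CPM and 45.2, 93.4, 93.6 and 55.2 CPM in the same order (-0.78 ± 0.29, adjusted p = 0.252). Its groups overlapped through TME-CM replicate 2, and it was called lower without that library (-1.14, adjusted p = 0.0346) and with both outlying libraries left out (adjusted p = 0.0413). Gfap, the glial filament protein, was low, at 2.31, 1.65, 5.96 and 5.74 CPM in TME-CM EGCs and 2.47, 1.43, 0 and 6.77 CPM in H-CM EGCs. Sparcl1, a secreted glial protein, also did not pass the test (-0.52 ± 0.20, adjusted p = 0.285). The cultures also held markers of other cells. The fibroblast markers summed to 5513, 5638, 5873 and 6445 CPM in TME-CM EGCs (in order of size) and to 3855, 4453, 5229 and 5510 CPM in H-CM EGCs, so that the groups nearly met. Of the 8, 4 had a positive log2 fold change, and the median was 0.03. Without overlap, 3 lay above H-CM and 2, Pdgfrb and Dpt, lay below. Only 1 was called, the proteoglycan Dcn, with 1748, 1835, 1793 and 2484 CPM against 873, 809, 701 and 1083 CPM (1.18 ± 0.17, adjusted p = 6.21e-04). The neuronal markers summed to 789 to 942 CPM and 732 to 908 CPM, and 1 of 13 fell, the neurofilament Nefm (-1.46 ± 0.35, adjusted p = 0.034), which overlaps Nefl by 1108 exon bases on the opposite strand. Of 3 markers of interstitial cells of Cajal tested, 1 fell, 0 rose and 1 had a positive log2 fold change (median -0.82). The marker called was Kit, which fell by 1.37 ± 0.34 (adjusted p = 0.0405) and was not called with both outlying libraries left out. Epithelial and mesothelial markers were close to 0, with sums of up to 4.18 and 10.1 CPM in TME-CM EGCs and up to 11.1 and 16.4 CPM in H-CM EGCs. The part of these other cells in the changes described here was not tested.

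Several other pathways had few or no called genes at this time. Of all genes tested 1.89% were called, so 0 calls in lists of this size do not set a list apart. In edgeR's quasi-likelihood test, 0 genes were called of 24 in sterol and fatty acid synthesis, 28 of the cell cycle, 23 collagens and other matrix genes, 11 of the Notch pathway, 24 of axon guidance and 6 Schwann cell and myelin genes. At an unadjusted p under 0.05 there were 1, 2, 6, 1, 3 and 0, and DESeq2 called 1 Notch gene and 2 axon guidance genes lower and 0 in the other 4 lists. Their median log2 fold changes were -0.10, -0.01, -0.10, -0.29, -0.05 and 0.03. Ccnd1, a cyclin of the G1 phase, had 452, 375, 479 and 373 CPM with TME-CM and 533, 566, 486 and 547 CPM with H-CM (-0.34 ± 0.16, adjusted p = 0.456). Neither Col1a1, a chain of type I collagen (-0.03 ± 0.15, adjusted p = 0.975), nor the semaphorin receptor Nrp1 (-0.61 ± 0.18, adjusted p = 0.0939) passed the test. Of 20 genes of ER stress and the amino acid response, 2 were called (10%). The transcription factor Xbp1 (0.94 ± 0.19, adjusted p = 0.00943) and the cystine transporter Slc7a11 (1.34 ± 0.32, adjusted p = 0.0328) rose. Without TME-CM replicate 4, 0 genes of this list were called.

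EGCs with H-CM also differed from unstimulated EGCs, so that the H-CM libraries are not a resting state. Between H-CM and unstimulated EGCs, 49 genes were called (0.403%), and 23 to 29 when any 1 of the unstimulated libraries was left out. Of the 49, 14 were higher in H-CM than in unstimulated EGCs and also called higher in TME-CM than in H-CM. Both comparisons use the same H-CM libraries, so their values are given side by side and no overlap is tested. Ccl7 went from 9.62 ± 4.90 to 122 ± 47.3 and then to 743 ± 222 CPM, and Cxcl1 from 0.935 ± 0.742 to 36.03 ± 22.1 and 397 ± 159 CPM. Ier3, an immediate early gene that protects from cell death, went from 107 ± 6.65 to 273 ± 127 and 757 ± 101 CPM, and it was the only called gene of 17 in the list of immediate early genes. Slc7a11 went from 3.66 ± 1.70 to 15.03 ± 2.26 and 37.9 ± 14.9 CPM, and Gbp3 from 0.816 ± 0.393 to 17.1 ± 8.76 and 67.3 ± 23.8 CPM. The others were Ifitm3, Ccl2, Nfkbia, Cebpd, Cxcl2, Sprr2b, Cp, Slfn2 and Twist2. By contrast, the H-CM and unstimulated means of Il6, Timp1, Socs3, Cx3cl1 and Psme1 were close to each other, with adjusted p values of 0.997, 0.997, 0.997, 0.997 and 0.999.

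The 12 h response was then set beside those of 6 h and 24 h, which came from other libraries. At 24 h, 686 genes were called (5.4% of 12713). Of the 230 genes called at 12 h, 225 were tested at 24 h, all 225 with the same sign, and 175 were called there too. These make up 76.1% of the 12 h calls and 25.5% of the 24 h calls. In the test of the change itself, 0 of 12702 genes differed between the 12 h and 24 h effects by edgeR's quasi-likelihood test (358 at an unadjusted p under 0.05) and 0 by DESeq2 (457 at an unadjusted p under 0.05). Il6 had log2 fold changes of 4.97 ± 0.66 at 12 h and 3.22 ± 0.62 at 24 h, and its change between the times was -1.76 ± 0.95, adjusted p = 1. Some genes named above, such as Slc7a2, Irgm2, Pgr, Lurap1l and Bmp4, were called at 12 h and not at 24 h, with 24 h log2 fold changes of 1.19, 0.76, -1.17, -0.23 and -0.46.

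At 6 h, the 8 libraries held from 13518 counts (H-CM replicate 4) to 5244763 counts, and 9 of 9256 genes were called (0.0972%). Of the 230 genes, 199 were tested at 6 h and 149 had the same sign. The 7 called at both times were Ccl2, Cebpd, Cxcl1, Cxcl10, Ier3, Mt2 and Osmr, all higher. Between 6 h and 12 h, 1 gene changed its response by edgeR's quasi-likelihood test (0.00816% of 12249, 1045 at an unadjusted p under 0.05). This was Lcn2, whose log2 fold change was -0.34 ± 1.001 at 6 h and 5.25 ± 0.61 at 12 h, each in the fit of its own time. In the joint fit of both times the difference was 5.08 ± 0.75 (adjusted p = 0.00575). Lcn2 was not called without TME-CM replicate 3 of 6 h, or with a term for libraries with a Yam1 share above 25%. By contrast, 254 genes were called without TME-CM replicate 2 of 6 h, 9 without H-CM replicate 1 of 12 h and 4 without H-CM replicate 4 of 12 h. DESeq2 called 35 genes in this comparison. Saa3 had a log2 fold change of -0.33 ± 0.996 at 6 h and 4.98 ± 0.74 at 12 h, and this change did not pass the test. Ccl7 had a log2 fold change of 1.87 at 6 h (adjusted p = 0.187) beside 2.60 at 12 h.

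**Figure D5:**
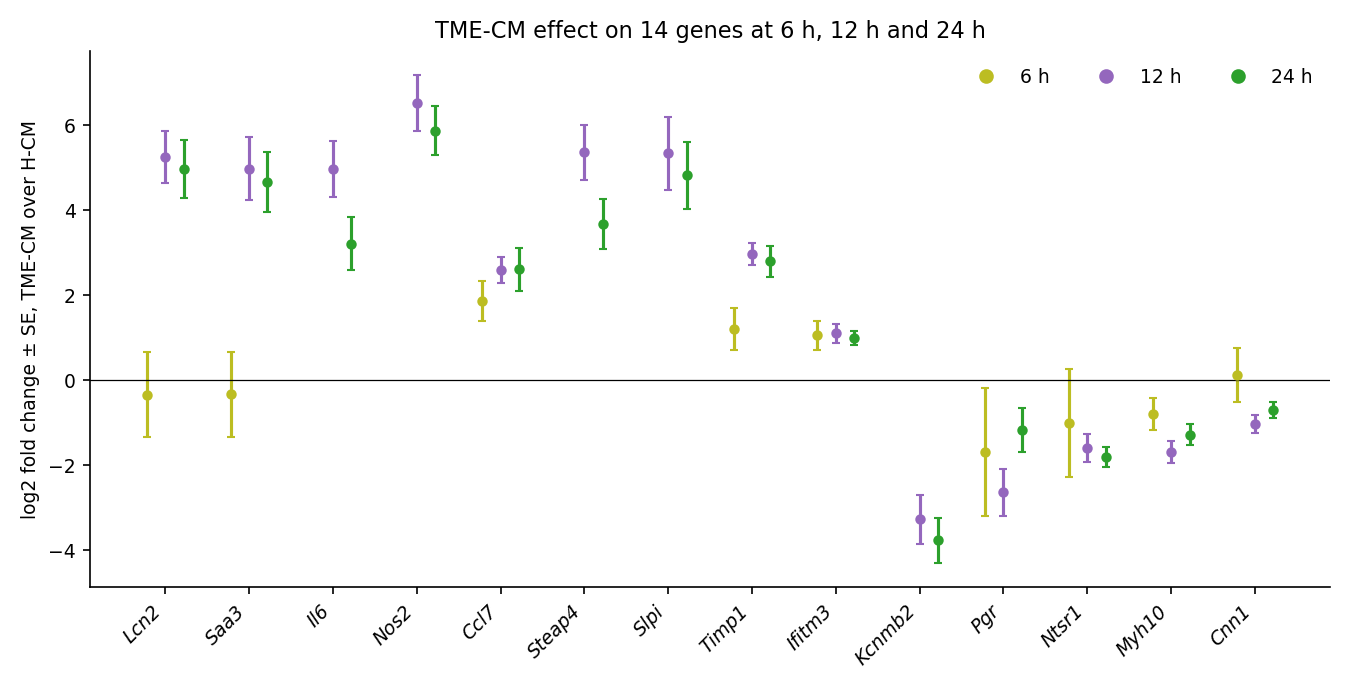
Log2 ratios of TME-CM to H-CM with their SE for 14 genes at the 3 time points. Each compares 8 libraries in a fit of the 12 libraries of that time, and a missing point was not tested at that time. Lcn2 and Saa3 lie near 0 at 6 h and near 5 at 12 h and 24 h, whereas Ifitm3 lies near 1 at all 3 times.

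Positions were taken from the GENCODE M21 annotation of GRCm38, the assembly also called mm10. Of the 230 called genes, 74 share exon bases with another annotated gene, 15 of them on the same strand and 59 on the opposite strand. Shared bases anywhere in a gene were counted here, while the libraries were made from 3′ ends. In those genes part of the counts may belong to the partner, depending on where the shared bases lie. Near-identical copies, such as those of the Saa and Sprr2 families, were counted only from reads that could be placed at 1 locus. Sprr2e, a small proline-rich protein of stressed epithelia, had 152 counts in TME-CM and 4 in H-CM libraries, a ratio of 48.5 after scaling (95% exact binomial interval 18.5 to 180, counting error only). Mgarp, a mitochondrial protein, had 79 counts against 3, a ratio of 33.6 (11.1 to 166), but unstimulated EGCs held 0, 8.52, 2.18 and 0.277 CPM and its call was lost in each of the 8 fits that left out 1 library. Chil1, a chitinase-like protein of reactive astrocytes, had 17.8, 6.19, 16.04 and 10.2 CPM against 1.92, 0.179, 0 and 0.147 CPM (4.59 ± 0.88, adjusted p = 0.00583).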

How the data were processed

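RNA of 36 samples of EGCs was sequenced by the authors from transcript 3′ ends (QuantSeq), and reads were aligned with HISAT2 to mm10, multi-mapping reads were discarded and HT-seq Count gave the deposited whole-number counts per gene. FastQC 0.11.7 and SAMtools 1.5 are also named in the submitters' processing notes, and the strand setting and annotation are not given in the sources used here. The 12 libraries of 12 h were fitted together with edgeR 4.0.16 (limma 3.58.1, R 4.3.3): TMM scaling, filterByExpr with a minimum count of 10, robust quasi-likelihood F test with 1 mean per group, Benjamini-Hochberg adjustment over all genes tested, and calls at an adjusted p under 0.05. SEs were derived from the log2 fold change and its F statistic. The changes between times were tested on 16 libraries each. Alternatives were DESeq2 1.42.0, other scaling and filters, other sets of libraries, a replicate block and each library left out, and leaving out both outlying libraries was added after the data had been seen. The scripts were tested on simulated data. The members and gene lists were chosen with earlier results of these data known. Named genes were the 15 largest separated called changes in each direction with at least 5 CPM, the 5 most abundant called genes in each direction, called members of each list (up to 5 by p, or the 2 most abundant where none was called), markers, genes called between times and genes the study names. Hp, Cebpb, Odc1, Adamts4, Mmp11, Ldha, Cxcl5, Fhl1, Sprr2b, Slfn2 and Twist2 were named after their values had been seen.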

Additional observations from a re-analysis of the deposited data

Results flagged for a closer look

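In groups of 4 libraries, a highest or lowest value whose gap to the next, as a share of the group's range, exceeded Dixon's 95% critical value was listed. Of 242 groups checked (109 called genes in the TME-CM and H-CM groups and library measures), 19 were listed. Chance alone would give about 1 in 20 if the values followed a normal distribution. A group with 1 library above 0 and the others at 0 is always listed, which was the case for Saa2, Csf3, Gbp4 and Mgarp. H-CM replicate 1 was the high value in most of them. It had 708 CPM of Saa3, 209.6 CPM of Timp1, 198 CPM of Sod2, 40.8 CPM of Lcn2, 34.8 CPM of Ptges, 34.5 CPM of Tap1, 28.0 CPM of Cx3cl1 and 5.48 CPM of Selp. At low levels it also stood above the other H-CM libraries for Slpi (2.19 CPM), Chil1 (1.92 CPM), Saa2 (1.92 CPM), Csf3 (1.37 CPM) and Gbp4 (1.10 CPM). All 13 are genes that rose in TME-CM EGCs, and genes that were not called were not checked. H-CM replicate 3 had the lowest Cd40 of its group, 9.24 CPM, and the highest mitochondrial share, 6.88% of counts. H-CM replicate 4 held the 0.442 CPM of Mgarp. TME-CM replicate 4 had the highest Ccl5 (53.5 CPM) and Dcn (2484 CPM) and the lowest Myh11 (20.9 CPM) of its group.

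The TME-CM effect on Lcn2 differed between 6 h and 12 h by 5.08 on the log2 scale, by edgeR's quasi-likelihood test of the difference (adjusted p = 0.00575). This difference was not called with a term for libraries with a Yam1 share above 25%.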

How the results depend on the processing

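At 12 h the TME-CM and H-CM libraries gave 230 called genes and 230 with DESeq2's size factors, 465 without a filter on low counts, 383 with DESeq2's test, 81 with all 36 libraries in one model, 164 from the 8 libraries alone and 137 to 297 with 1 library left out (137 without H-CM replicate 2, 138 without TME-CM replicate 4, 141 without TME-CM replicate 1). The share of lower genes was 82 of 230, against 12 of 81 with all 36 libraries and 37 of 164 with 8. Of the 230 genes, 112 were called in every fit that left out a library, 70 in every other alternative and 65 in all of these fits. In none of the fits did a gene of the 230 change sign. H-CM against unstimulated EGCs gave 49 calls, 168 without the filter, 98 with DESeq2's test and 23 to 57 with 1 library left out. The change from 6 h to 12 h gave 1 call, 101 without the filter, 35 with DESeq2's test, 95 with all 36 libraries, 0 with a term for libraries with a Yam1 share above 25% and 0 to 254 with 1 library left out (9, 4 and 2 without replicate 1 or 4 of H-CM or replicate 3 of TME-CM at 12 h). The change from 12 h to 24 h gave 0 in every fit. The causes were not tested. Replicate numbers were not treated as pairs, since over all genes tested the deviations of same-numbered TME-CM and H-CM libraries correlated at only 0.04, -0.007, 0.01 and 0.07. A marker sum that follows the numbers is given among the other observations. A fit with the replicate block gave 207 calls, 191 of them among the 230, and 40 and 1 for the other 2 comparisons with calls.

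Genes that changed sign had passed no test. With the Yam1 term the log2 fold changes were -0.011 for Cnp, 0.056 for Col1a1 and -0.004 for Ly96. With both outlying libraries left out they were -0.027 for Cnp, -0.55 for Krt18, -0.056 for Sparc and 0.527 for Tlr4. With 1 library left out they ranged from -0.075 to 0.224 for Cnp, -0.139 to 0.052 for Col1a1, -0.153 to 0.72 for Krt18, -0.162 to 0.484 for Ly96, -0.762 to 0.117 for Lyz2, -0.003 to 0.134 for Sparc and -0.367 to 0.367 for Tlr4.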

Other observations

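The summed level of the 12 macrophage markers present in the counts followed the replicate number rather than the treatment at 12 h. It was 212.4, 423.9, 85.34 and 105.2 CPM in TME-CM replicates 1 to 4, 258.4, 270.2, 146.4 and 81.99 CPM in H-CM replicates 1 to 4 and 218, 326.1, 108.7 and 64.17 CPM in unstimulated replicates 1 to 4. Replicates 1 and 2 lay above replicates 3 and 4 in all 3 groups. The difference between replicate numbers was noticed in the data and was not tested.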
